A study of Mus musculus with 8 samples.

Results

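A set of 9 genes of the tumour necrosis factor (TNF) superfamily was followed in 2 lymphocyte populations: the costimulatory receptors Tnfrsf9, Tnfrsf4, Tnfrsf18 and Cd27, the TNF receptors Tnfrsf1a and Tnfrsf1b, the death receptor Fas, and the death ligands Fasl and Tnfsf10. They were chosen by name and matched by symbol. All 9 were listed in both count tables, among 17642 genes for CD8 T cells and 18389 for group 2 innate lymphoid cells (ILC2s), and all 9 passed the filter on low counts. RNA was sequenced in bulk from primary wild-type mouse cells, CD8 T cells of the spleen and ILC2s of the lung. ILC2s live in tissues, carry no rearranged antigen receptor and secrete type 2 cytokines. Each cell type was either labelled untreated and cultured alone, or labelled co-cultured after 3 days with the other cell type at a 5:1 ratio, and was then isolated by flow cytometry. There were 4 groups of 2 libraries. The labels give no age or sex, no stimulus in the medium and no statement that replicates came from separate animals or cultures, and a p-value here covers only library-to-library spread, which may be technical.

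Receptors of this family are bound by ligands made as trimers, mostly on the surface of neighbouring cells. The costimulatory receptors and Tnfrsf1b have no death domain and recruit TRAF adaptors, which activate NF-kB and favour survival and cytokine production. Tnfrsf1a and Fas carry a death domain, through which adaptors such as TRADD and FADD can start caspase cleavage. In CD8 T cells, Fas ligand and TRAIL (encoded by Tnfsf10) are means of killing target cells beside the granule pathway.

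Library totals ran from 48072595 to 67076905 counts, and values below are CPM, each count scaled to a library total of 1000000. The defining markers of each labelled cell type were found. All 8 CD8 T cell markers were listed in the CD8 table, and all 10 ILC2 markers in the ILC2 table. In CD8 T cells the former summed to 4131.8 and 4305.8 CPM labelled alone and 5753.4 and 5774.8 CPM labelled co-cultured. The ILC2 libraries labelled alone stood apart from those labelled co-cultured by markers of other cells. The 8 CD8 T cell markers summed to 1208.9 and 1171.4 CPM in ILC2s labelled alone and 124.4 and 154.7 CPM in those labelled co-cultured. Stroma and fibroblast markers (7 of 9 listed) summed to 4593.2 and 4951.7 CPM against 122.8 and 131.1 CPM, and macrophage markers (5 of 11 listed) to 313.3 and 319.1 against 17.0 and 21.1 CPM. ILC2 markers went the other way, at 3341.1 and 3319.3 CPM labelled alone and 8346.4 and 8038.8 CPM labelled co-cultured. Of the stroma markers tested, 5 fell, Lum rose (61.0 and 71.7 against 105.2 and 109.9 CPM) and Thy1 did not pass. Both libraries of the group showed these levels, so no member result in ILC2s can be given without them. Whether the ILC2 labels are exchanged was not tested: all ILC2 directions are those of the labels, and an exchange would turn each of them and alter the comparison of the 2 cell types.

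Co-culture went with a rise of 6 of the 9 members in CD8 T cells, a fall of 1 and no call for 2 (edgeR quasi-likelihood test, adjusted p under 0.05). Over all 15948 genes tested, 30.2% were called higher and 30.7% lower (60.9% in either direction). The largest rises were those of Tnfsf10, Tnfrsf1b, Tnfrsf1a and Fas, from 1.96-fold to 3.73-fold in CPM, and the fall was that of Tnfrsf4. In ILC2s 4 members rose, 4 fell and 1 did not pass, against 31.8% higher and 34.4% lower over 16739 genes (66.3% in either direction). With so many genes called, the number of members called sets them apart from the rest in neither cell type. The 4 rises were those of Tnfrsf9, Tnfrsf18, Tnfrsf1b and Tnfrsf4, and the falls those of Fasl, Tnfrsf1a, Cd27 and Fas. All of these directions are relative to TMM scaling. When each cell type was scaled to its own marker genes, the CD8 counts became 4 higher and 3 lower and the ILC2 counts 0 higher and 7 lower. The median change over all genes then stood at -0.375 (CD8) and -1.518 (ILC2) on the log2 scale, against -0.005 and -0.01 under TMM.

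**Figure D1:**
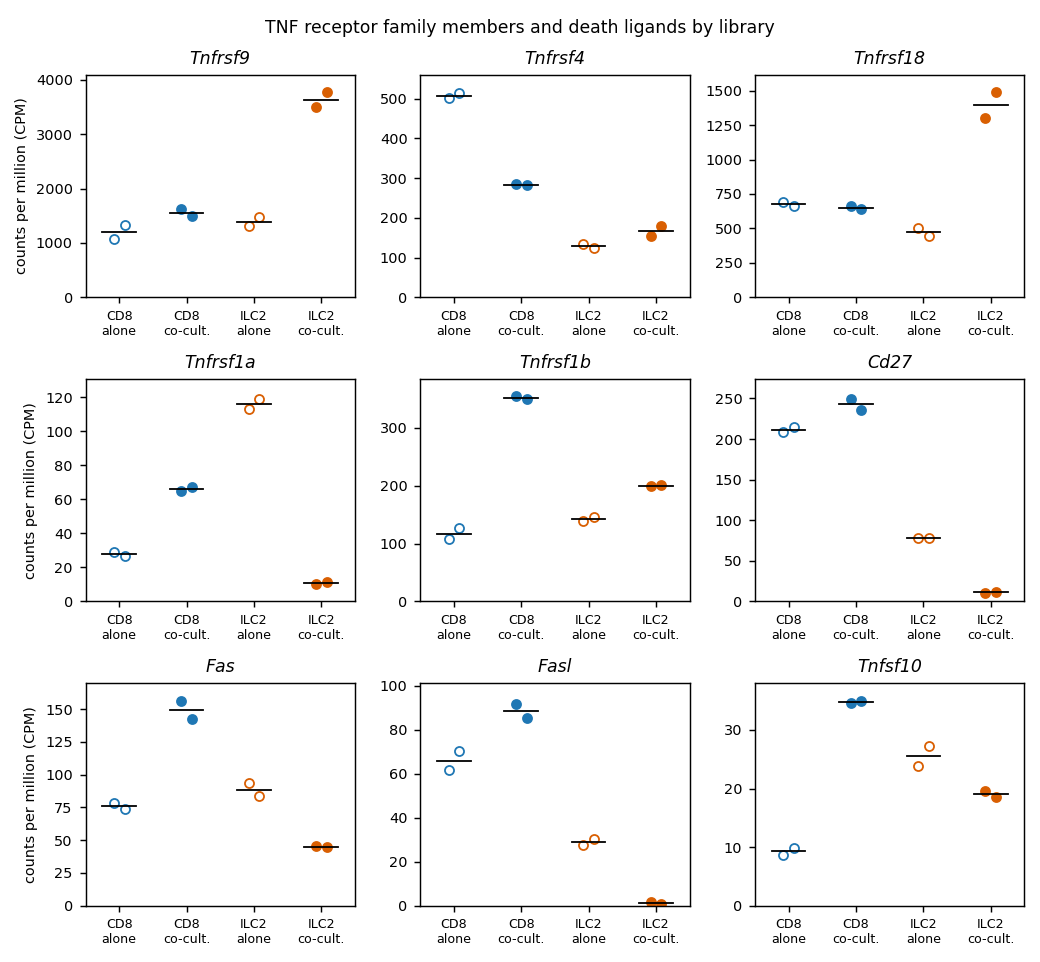
CPM of each member in every library (points, open for libraries labelled alone, filled for those labelled co-cultured; black lines, means of 2 libraries; vertical axes start at 0 and differ between genes). Tnfrsf9 and Tnfrsf18 are highest in ILC2s labelled co-cultured, and Tnfrsf1b, Cd27, Fas, Fasl and Tnfsf10 in CD8 T cells labelled co-cultured.

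Tnfrsf9 encodes 4-1BB, a receptor that appears on lymphocytes after activation and sustains CD8 T cell expansion. It stood at 1307.9 and 1469.9 CPM in ILC2s labelled alone and at 3494.1 and 3768.9 CPM in those labelled co-cultured. The ILC2 groups did not overlap, as was so for all 9 members in ILC2s (83.4% of all genes tested) and 8 of 9 in CD8 T cells (81.2%). The log2 change was 1.60 (SE 0.11, edgeR adjusted p = 2.1e-07), and 0.09 when scaled to ILC2 markers (adjusted p = 0.47, range 3.9e-43 to 0.47 over 13 alternatives). Among CD8 libraries it stood at 1070.0 and 1334.8 CPM labelled alone and at 1625.6 and 1488.6 CPM labelled co-cultured. The CD8 groups did not overlap, and the libraries labelled alone lay further apart than those labelled co-cultured (0.29 ± 0.098 SE in log2, edgeR adjusted p = 0.02). Leaving out CD8 alone replicate 1 gave 0.13 (adjusted p = 0.1), leaving out CD8 alone replicate 2 gave 0.47 and leaving out CD8 co-cultured replicate 1 gave 0.23 (adjusted p = 0.13). It was -0.07 when scaled to CD8 T cell markers (range of adjusted p 1.2e-07 to 0.46 over 13 alternatives). ILC2s and CD8 T cells labelled alone overlapped in level.

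Tnfrsf18 encodes GITR, a costimulatory receptor that is also abundant on regulatory T cells. In ILC2s it rose from 501.2 and 444.7 CPM to 1303.8 and 1487.7 CPM (1.77 ± 0.12 SE in log2, edgeR adjusted p = 1.3e-07). Scaled to ILC2 markers the change was 0.27 (adjusted p = 0.059, range 1.4e-51 to 0.059 over 13 alternatives). The CD8 groups overlapped, at 692.1 and 662.6 CPM labelled alone and 664.2 and 638.5 CPM labelled co-cultured (-0.14 ± 0.067 SE in log2, edgeR adjusted p = 0.096). Scaled to CD8 T cell markers the gene passed as lower (-0.51, adjusted p = 7.2e-06, range 7.2e-06 to 0.48 over 13 alternatives). The 5 CD4 and regulatory T cell markers summed to 413.8 and 422.1 CPM in ILC2s labelled alone and to 1754.4 and 1714.4 CPM in those labelled co-cultured, so their sum moved with Tnfrsf18. Ctla4 held most of it (374.7 and 388.8 against 1729.7 and 1684.5 CPM) and Ikzf2 rose too. Cd4 (15.8 and 12.6 against 2.52 and 2.0 CPM), Foxp3 (4.68 and 3.95 against 0.475 and 1.1 CPM) and Cd40lg fell.

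Tnfrsf4 encodes OX40, a receptor that prolongs T cell survival after priming, and lies 9551 bases from Tnfrsf18 on chromosome 4. Its levels were ordered otherwise than those of Tnfrsf18. It was highest in CD8 T cells labelled alone, at 500.5 and 514.4 CPM, and fell to 285.1 and 282.1 CPM in those labelled co-cultured (-0.92 ± 0.068 SE in log2, edgeR adjusted p = 1.7e-07). The fall was called in 13 of 13 alternatives. ILC2 libraries held less, 134.9 and 123.5 CPM labelled alone and 154.9 and 179.1 CPM labelled co-cultured, a log2 difference of 0.58 ± 0.12 (SE; edgeR adjusted p = 0.0011) that turned to -0.93 when scaled to ILC2 markers (adjusted p = 2.4e-05, range 1.5e-06 to 0.015 over 13 alternatives). No neighbours in the order of its 4 group levels overlapped.

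Cd27 encodes a costimulatory receptor that naive T cells already carry and whose ligand is CD70. Among CD8 libraries it stood at 209.0 and 214.4 CPM labelled alone and at 249.3 and 236.4 CPM labelled co-cultured, with no overlap. The log2 change was 0.12 (SE 0.069, edgeR adjusted p = 0.16) and turned to -0.25 when scaled to CD8 T cell markers (adjusted p = 0.0068, range 0.0068 to 0.51 over 13 alternatives). In ILC2s it fell from 78.3 and 78.1 CPM to 10.7 and 12 CPM, 6.87-fold in CPM (-2.57 ± 0.13 SE in log2, edgeR adjusted p = 1.7e-08). Cd27 overlaps Vamp1 on the other strand, and reads of the pair cannot be separated where the strand setting is not known. In ILC2s Vamp1 stood at 10.7 and 7.85 CPM labelled alone and 18.5 and 17.1 CPM labelled co-cultured, the opposite direction to Cd27. Its CD8 levels, 9.95 and 10.1 against 18.0 and 15.6 CPM, differed in the same direction as those of Cd27.

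The promoters of a pair that rose together in ILC2s under TMM scaling, Tnfrsf9 and Tnfrsf18, and of a receptor and its ligand that fell there, Fas and Fasl, are shown to set motif matches beside these responses. Each is the 250 bases before a RefSeq start (GRCm38.p6, the assembly of mm10), 5′ to 3′ on the strand of the gene, and all 9 members had an entry. Tnfrsf9 has a pair of starts, of which the downstream one is printed. Capitals mark matches on either strand to the NF-kB motif (searched by its consensus), AP-1 (TGANTCA), STAT (TTCNNNGAA), RUNX (TGTGGT) or EGR (GCGNGGGCG). The windows are chr4:150927749-150927998 (plus strand), chr4:156026072-156026321 (plus), chr19:34290409-34290658 (plus) and chr1:161788496-161788745 (minus), in the order printed. In the GENCODE M21 annotation both Tnfrsf9 windows lie within the gene (150914562 to 150946102), as does the Tnfrsf1a window, not printed, within its own. The Tnfrsf18 window runs past the start of its gene there (156026164), and its STAT match lies inside the gene.
Tnfrsf9: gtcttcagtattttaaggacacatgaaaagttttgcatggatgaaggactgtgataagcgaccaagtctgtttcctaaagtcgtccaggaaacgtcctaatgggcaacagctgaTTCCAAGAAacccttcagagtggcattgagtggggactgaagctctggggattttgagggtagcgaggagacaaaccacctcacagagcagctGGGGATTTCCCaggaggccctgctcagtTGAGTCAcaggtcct
Tnfrsf18: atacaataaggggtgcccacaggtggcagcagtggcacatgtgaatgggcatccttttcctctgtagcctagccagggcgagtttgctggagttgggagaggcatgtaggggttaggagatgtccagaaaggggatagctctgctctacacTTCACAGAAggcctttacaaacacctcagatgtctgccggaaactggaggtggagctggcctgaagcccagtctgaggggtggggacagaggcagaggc
Fas: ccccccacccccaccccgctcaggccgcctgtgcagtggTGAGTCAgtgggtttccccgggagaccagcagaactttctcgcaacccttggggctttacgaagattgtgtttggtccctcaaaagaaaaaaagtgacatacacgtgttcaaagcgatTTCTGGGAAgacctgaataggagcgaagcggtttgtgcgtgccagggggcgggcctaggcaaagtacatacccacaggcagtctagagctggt
Fasl: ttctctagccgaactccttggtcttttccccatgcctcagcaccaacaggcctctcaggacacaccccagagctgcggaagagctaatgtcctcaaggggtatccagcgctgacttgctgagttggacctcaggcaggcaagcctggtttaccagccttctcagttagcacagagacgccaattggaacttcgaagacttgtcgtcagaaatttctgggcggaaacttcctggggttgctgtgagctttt
The printed Tnfrsf9 window held the NF-kB motif as a pair of overlapping matches, an AP-1 match and a STAT match. The window of its upstream start, not printed, held 0 matches to the 5 motifs. Tnfrsf18 held 1 STAT match, Fas an AP-1 and a STAT match, and Fasl none of the 5 motifs. Over the 9 members the STAT motif was found in 5 (Tnfrsf9, Tnfrsf18, Tnfrsf1a, Tnfrsf1b and Fas), AP-1 in 2 (Tnfrsf9 and Fas), NF-kB in 1, and RUNX and EGR in 0. Tnfrsf9 entered these counts through its downstream window alone. Of all 32851 windows of this length, 7.02% held the STAT motif, 6.75% AP-1, 3.9% NF-kB, 14% RUNX and 4.7% EGR. These shares are per window, whereas a member was counted if any of its windows held a match. The 5 members with a STAT match included genes that rose and genes that fell in ILC2s. A match describes letters only and is not a bound site.

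Tnfrsf1a and Tnfrsf1b encode the receptors of TNF, the former with a death domain and the latter without. Both rose in CD8 T cells. Tnfrsf1a went from 29.2 and 26.8 CPM to 65.0 and 67.2 CPM (1.16 ± 0.082 SE in log2, edgeR adjusted p = 1.1e-07), and Tnfrsf1b from 108.2 and 126.2 CPM to 353.7 and 348.8 CPM (1.5 ± 0.084 SE in log2, edgeR adjusted p = 2.0e-08). Both rises were called in 13 of 13 alternatives. Epithelium and endothelium markers, cells that also express Tnfrsf1a, summed to 52.4 and 56.3 CPM in CD8 libraries labelled alone and 166.6 and 162.5 CPM in those labelled co-cultured (3 of 7 listed). Most of this sum was Pecam1 (36.0 and 38.7 against 132.6 and 129.1 CPM), while Epcam rose and Krt18 fell. The other markers of that list, Krt8, Sftpc, Cdh5 and Kdr, were not listed for CD8 T cells. Macrophage markers (4 of 11 listed) summed to 18.2 and 16.5 against 31.4 and 29.5 CPM, a difference made by Cd68 (13.9 and 14 against 31.0 and 29.4 CPM), while Lyz2 and Csf1r fell. The part of these cells was not tested. In ILC2s the pair split. Tnfrsf1a fell 10.8-fold in CPM, from 113.1 and 119.1 to 10.2 and 11.3 CPM (-3.22 ± 0.13 SE in log2, edgeR adjusted p = 2.9e-09), and this was called in 13 of 13 alternatives. Tnfrsf1b stood at 138.6 and 145.6 CPM labelled alone and 199.5 and 200.6 CPM labelled co-cultured, a log2 difference of 0.71 ± 0.12 (SE; edgeR adjusted p = 2.1e-04) that turned to -0.80 when scaled to ILC2 markers (adjusted p = 2.4e-05, range 1.3e-09 to 0.0014 over 13 alternatives). Tnfrsf1a is expressed by most tissue cells. Between the same libraries the stroma marker Col1a1 went from 1067.9 and 1226.4 to 0.64 and 0.312 CPM and the macrophage marker Cd14 from 131.9 and 139.7 to 0.846 and 1.23 CPM. Other markers of the same lists moved less or the other way: Cd68 fell 2.13-fold in CPM, Thy1 did not pass and Lum rose. The part of these cells in the Tnfrsf1a value was not tested, and in bulk RNA fewer cells of a type and less RNA per cell cannot be told apart.

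Fas encodes the receptor of Fas ligand. It rose in CD8 T cells from 78.5 and 73.9 CPM to 156.3 and 142.4 CPM (0.89 ± 0.075 SE in log2, edgeR adjusted p = 5.2e-07), and in ILC2s it fell from 93.7 and 83.6 CPM to 45.2 and 44.8 CPM (-0.76 ± 0.12 SE in log2, edgeR adjusted p = 2.0e-04). Both directions were called in 13 of 13 alternatives. Between the same ILC2 libraries all 8 CD8 T cell markers fell, and of 7 stroma markers tested 5 fell and 1, Lum, rose. The part of these cells in the ILC2 value of Fas was not tested. Labelled alone, the levels of both cell types lay between 73.9 and 93.7 CPM without overlap, and labelled co-cultured the CD8 level was the higher.

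Fasl, the gene of Fas ligand, is expressed by cytotoxic T cells and NK cells. It had the widest span of the members, 67.4-fold between the highest and the lowest group mean. CD8 T cells held 61.5 and 70.3 CPM labelled alone and 91.9 and 85.3 CPM labelled co-cultured (0.35 ± 0.086 SE in log2, edgeR adjusted p = 0.0036). That rise became -0.02 when scaled to CD8 T cell markers (adjusted p = 0.83, range 3.7e-05 to 0.83 over 13 alternatives). NK cell markers (4 of 6 listed) summed to 33.0 and 34.0 CPM in the same CD8 libraries labelled alone and 54.2 and 56.1 CPM in those labelled co-cultured, with Ncr1 not listed. Most of that difference was in Eomes, which CD8 T cells also express (24.4 and 25.8 against 45.9 and 48.4 CPM). Klra4 rose at under 1 CPM, and Klre1 and Klrb1c did not pass (-0.21 and -1.36 in log2). The part of NK cells in the Fasl value was not tested. In ILC2s it fell from 27.7 and 30.4 CPM to 1.69 and 0.936 CPM, which are 82 and 45 reads (-4.24 ± 0.25 SE in log2, edgeR adjusted p = 4.6e-08).

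Tnfsf10 encodes TRAIL, which binds the death receptor encoded by Tnfrsf10b. In CD8 T cells it showed the largest log2 change of the members, 1.82 (SE 0.11, edgeR adjusted p = 2.9e-08), from 8.7 and 9.92 CPM to 34.6 and 34.9 CPM, and was called in 13 of 13 alternatives. In ILC2s it stood at 23.8 and 27.3 CPM labelled alone and at 19.5 and 18.5 CPM labelled co-cultured, a change of -0.22 (SE 0.14, edgeR adjusted p = 0.2). It passed as lower in 3 of 13 alternatives, at -0.43 with library totals only, -0.37 in the fit of all 8 libraries and -1.73 when scaled to ILC2 markers (range of adjusted p 3.9e-07 to 0.7). Tnfrsf10b itself differed by -0.41 (SE 0.17, edgeR adjusted p = 0.053) in CD8 T cells and by 0.27 (SE 0.16, edgeR adjusted p = 0.16) in ILC2s.

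**Figure D2:**
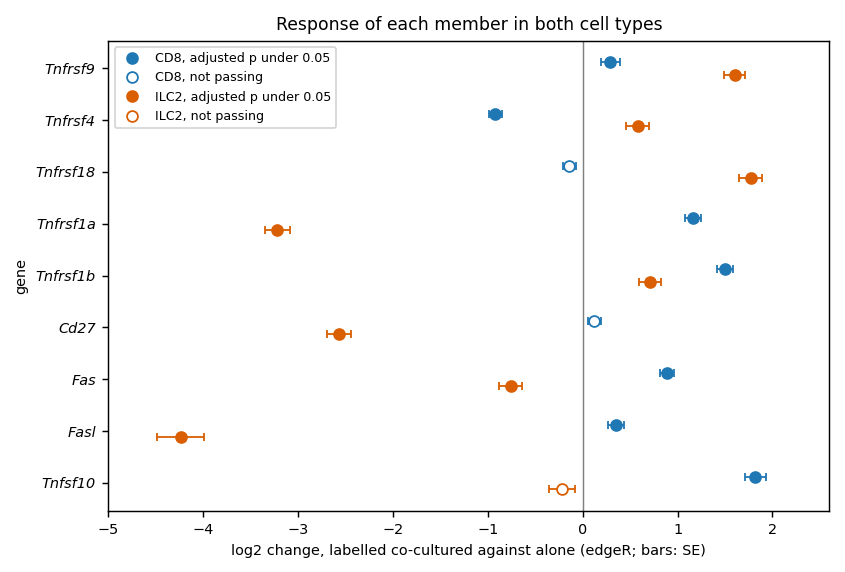
Log2 change of each member, libraries labelled co-cultured against alone, in CD8 T cells (blue) and ILC2s (orange), under TMM scaling (points, filled where adjusted p was under 0.05; bars, SE). Tnfrsf1a and Fas rise in CD8 T cells and fall in ILC2s; Fasl does so too, its CD8 value turning to -0.02 when scaled to CD8 T cell markers, and Tnfrsf4 does the reverse, its ILC2 value turning to -0.93 when scaled to ILC2 markers.

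The responses of the 2 cell types differed for each of the 9 members in the interaction test over all 8 libraries, 3 with the higher response in ILC2s and 6 with the lower (edgeR adjusted p from 1.1e-12 to 2.8e-05). Of all 15532 genes tested, 21.0% were called higher and 32.6% lower (53.6% in either direction). This joint fit has TMM factors of its own, so its values are not exactly the differences of the changes given above. The widest difference was that of Fasl, at -4.75 (SE 0.24) for the ILC2 change minus the CD8 change, and then that of Tnfrsf1a at -4.54 (SE 0.15). Tnfrsf18 differed by 1.75 (SE 0.13) in the other direction. Tnfrsf1b rose in both cell types under TMM (not in ILC2s scaled to their markers, -0.80) and its difference was the smallest, -0.95 (SE 0.14). Scaling each cell type to its own markers left 8 of the 9 called in the same direction. The exception was Tnfrsf9, whose difference went from 1.15 (SE 0.16) to 0.16 (adjusted p = 0.35, range 1.5e-13 to 0.35 over 16 alternatives). Each difference includes the ILC2 change. The ILC2 libraries labelled alone held CD8 T cell, stroma and macrophage markers at higher summed levels than those labelled co-cultured. The part of those cells in the differences was not tested, and an exchange of the ILC2 labels would alter each of them.

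Fasl and Cd27 are typical of T cells, and their levels in ILC2s were set beside those of CD8 T cell markers. In libraries labelled alone, ILC2s held 44.0% of the Fasl level and 36.9% of the Cd27 level of CD8 T cells, and 12.4% (Cd5) to 44.1% (Cd8a) of the levels of the 8 CD8 T cell markers. In libraries labelled co-cultured these shares were 1.48% for Fasl, 4.68% for Cd27 and 0.675% (Cd8a) to 11.5% (Cd3g) for the markers. NK cell markers, another source of Fasl, summed to 26.1 and 24.7 CPM in ILC2s labelled alone and to 1.34 and 1.64 CPM in those labelled co-cultured (3 of 6 listed, with Ncr1 not among them). The part of either cell type in the Fasl and Cd27 values was not tested. A falling share was not particular to genes typical of T cells. Tnfrsf1a went from 415% of the CD8 level labelled alone to 16.2% labelled co-cultured, and Fas from 116% to 30.1%. Tnfsf10 went from 275% to 54.6% and Tnfrsf1b from 121% to 57.0%. Tnfrsf9, Tnfrsf18 and Tnfrsf4 moved the other way, from 116%, 69.8% and 25.5% of the CD8 level labelled alone to 233%, 214% and 58.9% labelled co-cultured.

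**Figure D3:**
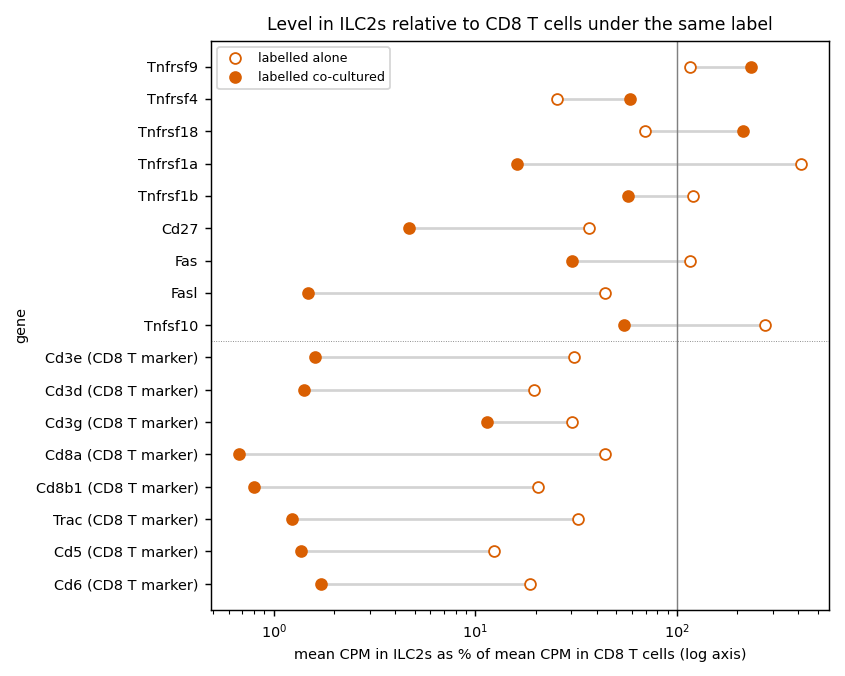
Mean CPM in ILC2s as a percentage of the mean CPM in CD8 T cells under the same label (log axis; open, labelled alone; filled, labelled co-cultured; means of 2 libraries), for the members (above the dotted line) and CD8 T cell markers (below). Fasl goes from 44.0% to 1.48% and Cd8a from 44.1% to 0.675%.

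Levels were compared between genes only per kilobase of the longest coding transcript (GENCODE M21). On this scale Tnfrsf9 and Tnfrsf18 were the most abundant members in every group, and in CD8 T cells labelled alone Tnfrsf18 (570 CPM per kilobase), Tnfrsf9 (569) and Tnfrsf4 (493) lay close together. In ILC2s labelled co-cultured Tnfrsf9 reached 1720 CPM per kilobase and Tnfrsf18 1170, against 162 for Tnfrsf4 and 0.678 for Fasl. Tnfsf10 was the lowest in CD8 T cells, at 1.86 labelled alone and 6.96 labelled co-cultured. The annotation behind the deposited counts is not given in the sources used here, so these lengths may differ from those counted.

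Of the 9 members, 4 lie on chromosome 4 and 2 on chromosome 6. Tnfrsf1b (145213463 to 145246870), Tnfrsf9 (150914562 to 150946102), Tnfrsf4 (156013843 to 156016612) and Tnfrsf18 (156026164 to 156028895) are protein-coding genes of chromosome 4 in GRCm38. The same stretch holds Tnfrsf8, Tnfrsf25 and Tnfrsf14. In ILC2s, Tnfrsf8, encoding CD30, rose from 113.8 and 113.0 to 306.2 and 306.3 CPM (log2 change 1.65, SE 0.12), and Tnfrsf25, encoding a death domain receptor, from 37.1 and 36.0 to 102.0 and 102.8 CPM (1.70, SE 0.12). Scaled to ILC2 markers neither passed, at 0.14 for Tnfrsf8 and 0.19 for Tnfrsf25. Tnfrsf14 did not pass there (0.10, SE 0.23). On chromosome 6, Cd27 (125232622 to 125237010) and Tnfrsf1a (125349362 to 125362484) lie on either side of Ltbr, the lymphotoxin beta receptor gene. All 3 fell in ILC2s, Ltbr from 28.0 and 32.2 to 1.53 and 2.25 CPM (-3.78, SE 0.20). Tnfrsf1a rose in CD8 T cells while Cd27 and Ltbr did not pass. Ltbr rests there on 31 and 15 reads labelled alone and 5 and 20 reads labelled co-cultured (-1.24, SE 0.59). Tnfrsf9 overlaps Camta1 on the other strand (8.81 to 16.3 CPM over the 8 libraries), and Tnfrsf18 overlaps an antisense transcript, Gm16008, listed in neither table.

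Of the 16 other TNF family ligands listed, 11 were tested in CD8 T cells, where 8 fell, 1 rose and 2 did not pass (30.7% and 30.2% of all genes). Their median log2 change was -0.98, against -0.01 over all genes, and scaled to CD8 T cell markers 9 fell and 0 rose. Ligands of the members were among those that fell: Tnfsf9, which binds the product of Tnfrsf9, went from 10.0 and 9.29 to 5.43 and 5.22 CPM, and Tnf and Lta, which bind both TNF receptors, changed by -1.81 (SE 0.088) and -4.66 (SE 0.15). Tnfsf8, the ligand of CD30, changed by -1.90 (SE 0.094). The rise was that of Tnfsf4, the OX40 ligand (0.21, SE 0.084, edgeR adjusted p = 0.047), which no longer passed in 9 of 13 alternatives, each of the 4 that leave out a library among them, and turned to -0.16 when scaled to CD8 T cell markers. Tnfsf18, the GITR ligand, was listed in neither table, and Cd70 was listed for ILC2s at 0.0902 to 0.374 CPM. In ILC2s 14 ligands were tested, of which 4 rose and 5 fell (31.8% and 34.4% of all genes; median -0.36), and scaled to ILC2 markers 1 rose and 12 fell. Ltb, of membrane lymphotoxin, rose from 49.5 and 51.2 to 145.9 and 168.7 CPM, Tnfsf11, encoding RANKL, from 160.3 and 157.9 to 316.0 and 297.2 CPM and Lta from 7.0 and 6.95 to 12.7 and 13.0 CPM, of which Tnfsf11 turned to -0.35 and Lta to -0.41 when scaled to ILC2 markers. Tnfsf4 fell from 33.7 and 36.8 to 5.26 and 6.53 CPM. Tnf fell in ILC2s too, from 29.8 and 31.3 to 6.64 and 8.92 CPM (-1.76, SE 0.16). Tnfsf15 (-4.46, SE 0.28) and Cd40lg (-4.19, SE 0.45) fell from levels of at most 10.3 CPM. Under the co-cultured label Cd40lg rests on 4 and 9 reads, and its change was -4.84 without ILC2 co-cultured replicate 2. Tnfsf9, named here as the ligand of Tnfrsf9, did not pass in ILC2s (-0.33, SE 0.14, edgeR adjusted p = 0.053).

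Of 13 other TNF receptors tested in CD8 T cells (21 listed), 6 rose, 2 fell and 5 did not pass (30.2% of all genes rose and 30.7% fell), and scaled to CD8 T cell markers 3 rose and 5 fell. The largest rises were Tnfrsf26 (1.46, SE 0.12), Tnfrsf25 (1.38, SE 0.13) and Tnfrsf14, encoding HVEM (0.79, SE 0.11). Tnfrsf12a (-1.10, SE 0.29) and Tnfrsf13b (-0.40, SE 0.081) fell; Tnfrsf12a no longer passed without CD8 alone replicate 2 (-0.94), and the fit of all 8 libraries called 4 lower. In ILC2s 3 of 17 rose and 11 fell (31.8% and 34.4% of all genes; median -0.60), and scaled to ILC2 markers 1 rose and 14 fell. Tnfrsf11a, encoding RANK, rose from 6.08 and 6.64 to 23.4 and 19.9 CPM. The deepest fall was that of Tnfrsf11b, encoding osteoprotegerin, a secreted decoy made by stromal cells, from 193.9 and 183.1 to 0.866 and 0.478 CPM. Eda2r (-4.25, SE 0.21) also fell. Of the 7 stroma markers tested in the same libraries 5 fell and 1, Lum, rose, and the part of stromal cells in these values was not tested.

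All 40 adaptor and signalling genes were tested in both cell types. The CD8 comparison had 21 rising and 10 falling (30.2% and 30.7% of all genes; median 0.25), and scaled to CD8 T cell markers 9 rose and 19 fell. Birc2, a ubiquitin ligase of the TNF receptor complex, rose from 77.3 and 82.3 to 310.4 and 291.4 CPM. Tnfaip3, encoding the NF-kB inhibitor A20, rose from 126.0 and 159.8 to 423.0 and 421.5 CPM, and Map3k14, the kinase of the alternative NF-kB pathway, by a log2 change of 1.13 (SE 0.12). Bid (-0.97, SE 0.094), which links caspase-8 to mitochondria, Fadd (-0.73, SE 0.21), the adaptor of Fas, and Nfkb2 (-0.69, SE 0.082) fell, of which Fadd no longer passed without CD8 alone replicate 2 (-0.68). In ILC2s 17 rose and 16 fell (31.8% and 34.4% of all genes; median 0.07), with 10 falling without ILC2 alone replicate 1, and scaled to ILC2 markers 2 rose and 33 fell. Tnfaip3 and Birc2 were again among the largest rises: Tnfaip3 went from 336.2 and 302.4 to 1051.9 and 924.7 CPM and Birc2 from 81.8 and 78.4 to 204.8 and 184.2 CPM, with Traf3, which restrains Map3k14, at 1.82 (SE 0.13), and Birc2 turned to -0.02 when scaled to ILC2 markers. Bid fell from 29.5 and 29.0 to 3.18 and 3.62 CPM, Rel by 1.60 (SE 0.17) on the log2 scale and Fadd by 1.48 (SE 0.31).

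**Figure D4:**
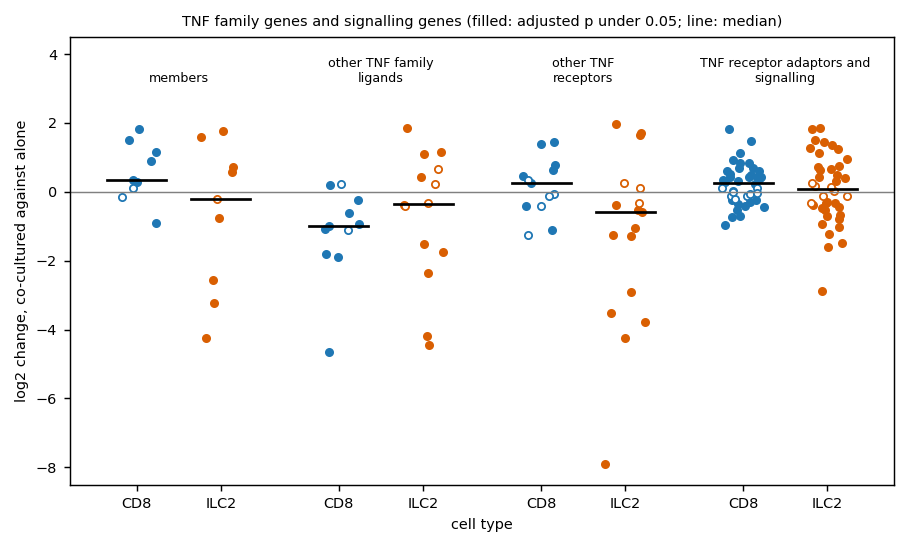
Log2 change of each tested gene, libraries labelled co-cultured against alone, for the 9 members and 3 lists (points, filled where adjusted p was under 0.05; horizontal lines, medians; horizontal position within a column is arbitrary). The median of the other ligands in CD8 T cells lies at -0.98 and that of the other receptors in ILC2s at -0.60.

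For 8 of the members, the 1 gene with the most similar pattern is given, found over the 8 libraries and 15532 genes, by the root mean square difference of mean-centred log2 CPM. Slc44a2, a choline transporter gene, lay closest to Tnfrsf1b (difference 0.07), Aldh1l1 to Tnfsf10 (0.08), the glycolytic gene Aldoa to Tnfrsf18 (0.10) and Med16 to Fas (0.10). Lcorl lay closest to Tnfrsf9 (0.11), Stard4 to Tnfrsf4 (0.11), Cd96, a receptor gene of T and NK cells, to Cd27 (0.13), and Mmd to Tnfrsf1a (0.18). The libraries share 4 groups of 2, so these are descriptions of 4 levels.

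**Figure D5:**
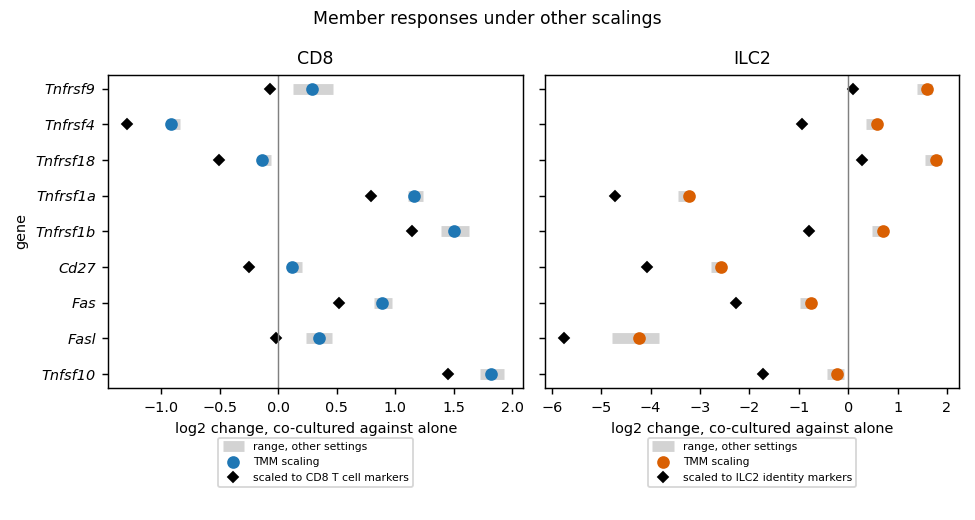
Log2 change of each member under TMM scaling (circles), under scaling to the markers of the same cell type (diamonds) and the range over the other settings (grey bars), in CD8 T cells and ILC2s. Fasl in CD8 T cells moves from 0.35 to -0.02 and Tnfrsf9 in ILC2s from 1.60 to 0.09, while Tnfrsf1a in ILC2s stays below -3.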

How the data were processed

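RNA of 8 libraries was measured by bulk sequencing after SMART-Seq v4 low-input preparation, per the labels' protocols. The authors deposited whole-number read counts per gene symbol, 1 table per cell type. Tools listed, with no role or order, in the submitters' processing notes are HISAT2 2.1.0, StringTie 2.1.3b, SAMtools 1.9 and Trimmomatic 0.38, with the build mm10. What each did, and the annotation and strand setting, is not given in the sources used here. Neither table holds a 0, so a gene with 0 reads in any library of a table may not be listed there.

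Each table was fitted whole (R 4.3.3, edgeR 4.0.16) after filterByExpr and with TMM factors. The quasi-likelihood F test was adjusted by Benjamini-Hochberg over all genes tested, with a threshold of 0.05. There were 2 residual and 10.4 (CD8) or 9.2 (ILC2) prior degrees of freedom, so each p rests largely on the spread of other genes. SE is the log2 change divided by the square root of F. The interaction used the genes of both tables (4 residual degrees of freedom). Scripts were tested on simulated data. There only 50 genes were given each size of change. A true log2 change of 0.5 was recovered for 72% of those genes in the CD8 comparison, 32% in the ILC2 comparison and 22% in the interaction. In the data 60.9%, 66.3% and 53.6% of all genes were called, so the adjustment was less strict than in the simulation. These recovered shares therefore do not describe the fits given here. A gene that did not pass may still have changed. DESeq2 1.42.0, limma-voom (limma 3.58.1), other scalings, filters, a replicate block and left-out libraries were alternatives, and scaling to CD8 T cell markers, also in the interaction, was added after seeing the data. No 2 replicates were alike within sampling noise (a chi-square of 13.9 to 28.75 per gene). Genes outside the members were named by rule: up to 3 per list, cell type and direction with the largest called change and a mean log2 CPM of at least 0, and 1 most similar gene per member (that of Fasl is not reported here). Ligands of members, markers and neighbouring or overlapping genes were named for their role after their values were seen. The members and lists were chosen with earlier results of these data known.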

Additional observations from a re-analysis of the deposited data

Results flagged for a closer look

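The change between the culture labels differed between the cell types for all 9 members, by the interaction test over 8 libraries (edgeR, adjusted p under 0.05, 53.6% of all genes tested). Values are the log2 change in ILC2s minus that in CD8 T cells, from a joint fit of all 8 libraries under TMM scaling. They are not exactly the differences of the changes fitted within each cell type. The ILC2 response was the higher for Tnfrsf18 (1.75, edgeR adjusted p = 1.3e-08), Tnfrsf4 (1.34, adjusted p = 3.1e-07) and Tnfrsf9 (1.15, adjusted p = 1.3e-05). It was the lower for Fasl (-4.75, edgeR adjusted p = 1.6e-10), Tnfrsf1a (-4.54, adjusted p = 1.1e-12) and Cd27 (-2.84, adjusted p = 6.2e-11). Tnfsf10 (-2.19, edgeR adjusted p = 5.3e-08), Fas (-1.81, adjusted p = 2.3e-08) and Tnfrsf1b (-0.95, adjusted p = 2.8e-05) were lower as well. The median over all genes tested was -0.121. CD8 T cell markers summed to 1208.9 and 1171.4 CPM in ILC2s labelled alone and to 124.4 and 154.7 CPM in those labelled co-cultured. Summed stroma and macrophage markers were also higher in ILC2s labelled alone, and summed ILC2 markers were lower. The part of these other cells in the values was not tested, and ILC2 directions are those of the labels. With each cell type scaled to its own markers, Tnfrsf9 no longer passed (0.16, edgeR adjusted p = 0.35, range 1.5e-13 to 0.35 over 16 alternatives), and the values of Tnfrsf4 and Tnfrsf18 went to 0.36 and 0.77, both still called.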

How the results depend on the processing

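Of the member values under alternatives, 109 of 117 in CD8 T cells, 109 of 116 in ILC2s and 142 of 143 in the interaction kept their direction and side of the threshold. In CD8 T cells, Tnfrsf4, Tnfrsf1a, Tnfrsf1b, Fas and Tnfsf10 did so under each of the 13 alternatives run, and in ILC2s Tnfrsf1a, Cd27 and Fas did so under each of 13 and Fasl under each of 12, since it drops out where at least 1 CPM is asked of every library. Scaling to CD8 T cell markers turned the sign of Tnfrsf9 (-0.07) and Fasl (-0.02), both then not called, and of Cd27 (-0.25), not called under TMM. It gave 3 members lower. Scaling to ILC2 markers reversed Tnfrsf4 (-0.93) and Tnfrsf1b (-0.80) and left 0 members higher and 7 lower. Among the listed genes the first turned the sign of Tnfsf4 (-0.16) and the second that of Lta (-0.41), Tnfsf11 (-0.35) and Birc2 (-0.02). These scalings move all genes, by construction. Both marker lists are themselves higher in libraries labelled co-cultured. Of the 8 CD8 T cell markers, 4 rose and 1 fell in CD8 T cells under TMM, so they did not move together. Which scaling is the better one was not tested. Cd27 in CD8 T cells passed as higher with library totals only (0.20, adjusted p = 0.023, range 0.0068 to 0.51 over 13 alternatives), and Tnfrsf9 there no longer passed without the low-count filter (0.30, adjusted p = 0.068, range 1.2e-07 to 0.46). The median over all genes in the interaction was -1.103 with each cell type scaled to its own markers, 0.001 with RLE scaling and -0.29 with library totals only, against -0.121 under TMM.

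The replicate numbers share only a number: the correlation of the deviations of same-numbered libraries was 0.01 in CD8 T cells and 0.086 in ILC2s. With the replicate block, 9732 genes were called in CD8 T cells against 9711 without it, 11056 against 11090 in ILC2s and 8457 against 8324 in the interaction, and no member changed its call. Depth limits Fasl in ILC2s labelled co-cultured, which rests on 82 and 45 reads.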
